A study of Homo sapiens with 8 samples.

Results

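MIR25 and MIR93 are neighbouring microRNA genes that are processed from one intron of MCM7, a gene for a subunit of the helicase that unwinds DNA at replication. They were the rows of the array table annotated with either symbol, which were 6 of 621 rows, or 2 of 207 features when the 3 consecutive spots of a probe set are read as 1 feature. Of these features, 67 carried a microRNA symbol. MIR106B, the third gene of the cluster, was not among the named features and is not analysed here. Both genes were followed in K562, a human leukaemia cell line arrested at an early blood cell stage, which can make haemoglobin when induced. Day 0 was 1 array of unstimulated cells, without either cytokine (0 U/ml and 0 ng/ml). The later groups were 1 array each on days 2, 4, 6, 8, 10 and 22 of culture with erythropoietin at 7.5 U/ml together with interleukin 3 at 50 ng/ml. The induction medium was the serum-free StemLineII, to which the cells had been adapted, and stock cultures were kept in serum. It is not stated in the labels whether the day 0 cells had also been moved to that medium. The labels name the K562 line throughout except in the extraction protocol, which names CD34 cells. The erythroid defining genes MIR451A and MIR144 were not among the named features, so the labelled lineage could not be checked with them. The day 15 column was left out, because in 621 of 621 rows it held the average of the columns for days 10 and 22 (within 0.006 units).

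A microRNA is cut from a hairpin, and 1 arm of the hairpin is loaded into Argonaute, where bases 2 to 8, the seed, pair with target messages. The cluster of MIR106B, MIR93 and MIR25 is a paralog of the cluster on chromosome 13 that holds MIR17, MIR18A, MIR19A, MIR20A and MIR92A1. Both clusters are transcribed in dividing cells under E2F and MYC and are known to restrain the cell cycle inhibitor CDKN1A (miR-93 and its seed relatives) and the pro-apoptotic BCL2L11 (miR-25 and its seed relatives).

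The mature sequences show why the neighbours are counted in different families. They are RefSeq sequences on GRCh38.p14, printed with the seed in capitals, and the symbol on the array does not say which arm its probe reads. The arms of MIR25 lie at chr7:100093571-100093592 (3p) and chr7:100093610-100093630 (5p), and those of MIR93 at chr7:100093777-100093798 (3p) and chr7:100093815-100093837 (5p), all on the minus strand within MCM7. The 2 pairs of arms are 146 bases apart.
hsa-miR-25-3p: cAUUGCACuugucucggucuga
hsa-miR-25-5p: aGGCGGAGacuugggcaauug
hsa-miR-93-5p: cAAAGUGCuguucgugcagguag
hsa-miR-93-3p: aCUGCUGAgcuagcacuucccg

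The seed of miR-25-3p, AUUGCAC, was found in 6 of 2370 mature human sequences in that table, and 3 of the 7 genes that encode them were named on the array, namely MIR25, MIR32 and MIR367. The relatives on the array and the closest one, miR-92a-3p, are shown to compare what lies beyond the seed. Counted from the 5′ end without gaps, miR-25-3p was identical to miR-92a-3p at 18 of 22 positions, to miR-32-5p at 13 and to miR-367-3p at 12.
hsa-miR-92a-3p: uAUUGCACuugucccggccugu
hsa-miR-32-5p: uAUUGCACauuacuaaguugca
hsa-miR-367-3p: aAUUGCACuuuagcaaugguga

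The seed of miR-93-5p, AAAGUGC, was found in 8 of the 2370 sequences, and of the 8 genes MIR93 and MIR20A were named on the array. The relatives from both clusters are shown because they differ from miR-93-5p by only a few bases, at which hybridisation probes may cross-react. That cross-reaction was not tested. Counted in the same way, miR-93-5p was identical to miR-20a-5p and to miR-17-5p at 19 of 23 positions each, and to miR-106b-5p at 16 of 21. It was identical to its neighbour miR-25-3p at 9 of 22.
hsa-miR-20a-5p: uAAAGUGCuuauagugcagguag
hsa-miR-17-5p: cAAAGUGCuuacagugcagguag
hsa-miR-106b-5p: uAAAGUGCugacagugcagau

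The hairpin of MIR25, at chr7:100093560-100093643 on the minus strand, shows both arms (capitals) that a probe named only MIR25 could read, the 5p arm first.
MIR25 hairpin: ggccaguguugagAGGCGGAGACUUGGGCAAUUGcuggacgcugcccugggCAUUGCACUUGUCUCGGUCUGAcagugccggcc

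Because the genes share a host transcript, the RefSeq promoter window of the first of 3 MCM7 starts is shown (300 bases around the start, chr7:100101348-100101647, minus strand), with letter matches in capitals. The searches, on both strands, were for the MYC E-box CACGTG, for TTCGCGC or TTGGCGC, which are spellings of the E2F site, and for the GATA site AGATAA. The window held 1 E-box match, beginning 25 bases before the start, and 2 overlapping E2F matches, TTCGCGC and TTGGCGC on the opposite strand, beginning 8 and 5 bases before it. It held 0 matches to AGATAA. The windows of the other 2 starts held 0 E-box matches and 0 matches to AGATAA, and 1 E2F match in one of them. Of 35116 windows of this length, 7.26% held the E-box letters, 5.06% either E2F spelling and 10.3% the GATA letters. A match is a run of letters only, and binding was not measured.
MCM7 promoter: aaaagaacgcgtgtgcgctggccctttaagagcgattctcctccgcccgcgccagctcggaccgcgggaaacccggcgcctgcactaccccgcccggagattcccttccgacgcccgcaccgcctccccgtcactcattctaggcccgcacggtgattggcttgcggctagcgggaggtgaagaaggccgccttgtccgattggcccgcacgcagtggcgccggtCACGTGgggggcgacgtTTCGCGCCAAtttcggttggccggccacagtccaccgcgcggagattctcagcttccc

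The arrays differ in brightness and have no replicates, which bears on every value below. The deposited intensities had the mean of each array subtracted, so signal is given above the dimmest spot of the same array, and the true zero is unknown. On day 0 the median spot exceeded the dimmest by 112 units, on day 2 by 261, on day 4 by 312 and on day 22 by 63.0. The brightest spot exceeded the dimmest by 15443 units on day 0 and by 4511 on day 2. The SD between the 3 spots of a feature, as a root mean square over all features of an array, ranged from 0.12 to 0.27 on the log2 scale. It covers spotting and reading, not cultures. The labels do not name separate cultures for the time points, so p-values measure only the scatter between these arrays, and fewer cells with the microRNA and less of it per cell cannot be told apart.

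MIR25, whose main product targets BCL2L11, gave its brightest signal on day 4 and its dimmest on day 22. Its mean intensity above the dimmest spot was 416 ± 124 units (day 0), 464 ± 54.0 (day 2), 1003 ± 37.3 (day 4), 531 ± 38.5 (day 6), 306 ± 1.0 (day 8), 305 ± 12.1 (day 10) and 91.3 ± 4.16 (day 22) (SD, n = 3 spots). The day 4 spots, at 984, 979 and 1046 units, lay above all spots of the other days, and the day 22 spots, at 90, 96 and 88, lay below all of them. Days 0, 2 and 6 overlapped, since the day 6 spots read 529, 493 and 570, the day 0 spots read 343, 346 and 559 and the day 2 spots 427, 439 and 526.

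MIR93, whose main product targets CDKN1A and E2F1, had the same brightest and dimmest days. Its mean intensity above the dimmest spot was 426 ± 128 units (day 0), 395 ± 129 (day 2), 852 ± 157 (day 4), 407 ± 61.2 (day 6), 301 ± 14.8 (day 8), 210 ± 13.5 (day 10) and 87.3 ± 6.66 (day 22) (SD, n = 3 spots). The spots of day 4 read 836, 703 and 1016 units and those of day 22 read 83, 84 and 95, and neither overlapped any other day. On days 0, 2 and 6 the spots overlapped. The 3 spots of day 2 were 316, 325 and 543 units, so the third stood apart from the other two.

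**Figure D1:**
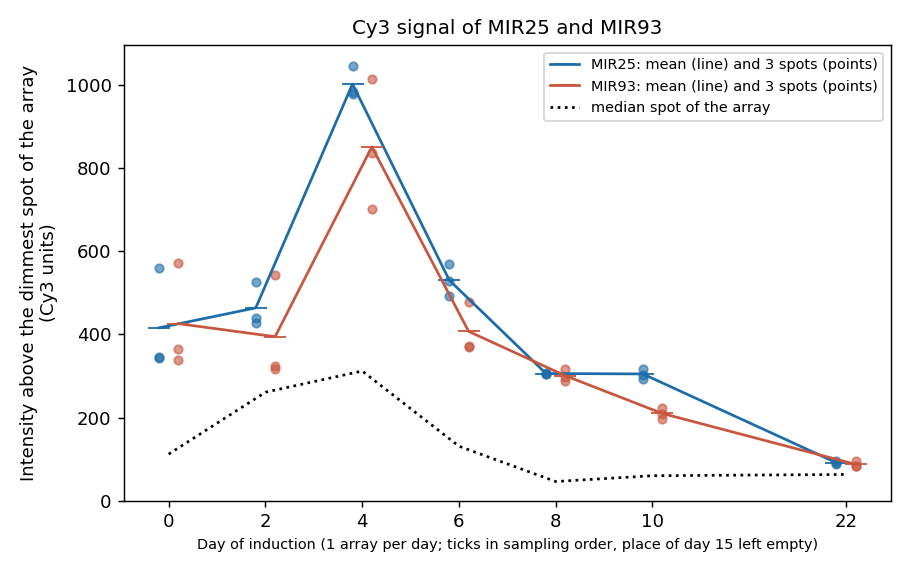
Intensity of MIR25 and MIR93 above the dimmest spot of each array, in Cy3 units, by day in sampling order. Points are the 3 spots, lines join their means and the dotted line is the median spot of the array. Both genes are brightest on day 4, at 1003 and 852 units, when the median spot is also at its highest of 312.

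After correction of the background, log2 transformation and quantile normalization, which gives all arrays the same distribution of values, the day 4 maximum was reduced and both genes instead had their lowest values on days 22 and 2. Values of this kind are called levels here, and they are relative to the other features of the array. MIR25 had levels of 8.68 ± 0.23 (day 0), 7.90 ± 0.24 (day 2), 8.87 ± 0.04 (day 4), 8.99 ± 0.07 (day 6), 8.66 ± 0.02 (day 8), 8.63 ± 0.06 (day 10) and 7.70 ± 0.09 (day 22) (SD, n = 3 spots). From the highest, the order of days was 6, 4, 0, 8, 10, 2 and 22. Days 0, 8 and 10 differed by less than the spot SD of day 0, and days 4 and 6 were 0.12 apart.

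MIR93 had levels of 8.73 ± 0.29 (day 0), 7.63 ± 0.52 (day 2), 8.58 ± 0.30 (day 4), 8.66 ± 0.14 (day 6), 8.65 ± 0.10 (day 8), 8.28 ± 0.08 (day 10) and 7.60 ± 0.14 (day 22) (SD, n = 3 spots). The order from the highest was 0, 6, 8, 4, 10, 2 and 22. Days 0, 6, 8 and 4 did not differ beyond the spot SD of day 0, and days 2 and 22 did not differ beyond that of day 2.

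Both genes were set against 6 microRNAs of tissues foreign to these cultures, which give an idea of the signal without expression. These were the epithelial MIR429, the islet gene MIR375 and 4 embryonic genes, MIR371A, MIR372, MIR373 and MIR367. The other 6 listed genes were not among the named features. The highest foreign level ranged from 6.85 on day 4 to 7.60 on day 22. All 3 spots of MIR25 exceeded every foreign spot on days 0, 2, 4, 6, 8 and 10, and the margin of the means over the highest foreign gene was smallest there on day 2, at 0.60. For MIR93 the same held on days 0, 4, 6, 8 and 10, while on day 2 only 1 spot did. On day 22, 0 spots of either gene exceeded the brightest foreign spot, and the mean level minus that of MIR373 was 0.10 for MIR25 and -0.0035 for MIR93. The day 22 signal of both genes was thus not distinguishable from that of the highest foreign markers, MIR373 (7.60 ± 0.57, SD of 3 spots) and MIR429 (7.59). MIR372, MIR371A, MIR367 and MIR375 were lower that day, at 6.82, 6.71, 6.44 and 6.40. On day 22, 0 spots of either member lay at or below the array mean, where 67.1% of all spots did.

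**Figure D2:**
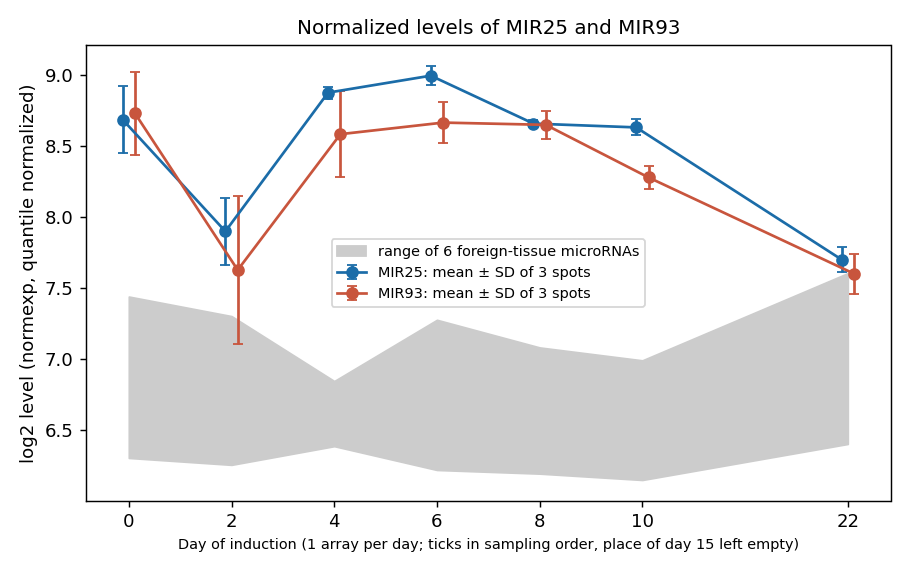
Quantile-normalized log2 level of MIR25 and MIR93 by day in sampling order. Points are means and bars the SD of 3 spots, and the grey band is the range of the 6 foreign-tissue microRNAs. MIR25 is at 8.63 on day 10 and at 7.70 on day 22, near the top edge of the band.

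The position of a feature within its own array does not depend on how arrays are scaled to each other. By mean signal MIR25 ranked 18 of 207 before induction, where 1 is the brightest, and then 39 (day 2), 15 (day 4), 13 (day 6), 17 (day 8), 19 (day 10) and 49.5 (day 22). MIR93 ranked 17 before induction and 60, 19, 19, 19, 27 and 55 on the later days in turn. The low standing on days 2 and 22 was thus present in both genes without any scaling. Standing had a Spearman correlation with sampling order of -0.29 for MIR25 (exact two-sided permutation p = 0.556 over 5040 orderings) and -0.41 for MIR93 (exact permutation p = 0.390), both 0.556 after Benjamini-Hochberg adjustment over these 2 tests. Without day 2 the MIR93 correlation was -0.94 (exact permutation p = 0.0167, unadjusted).

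**Figure D3:**
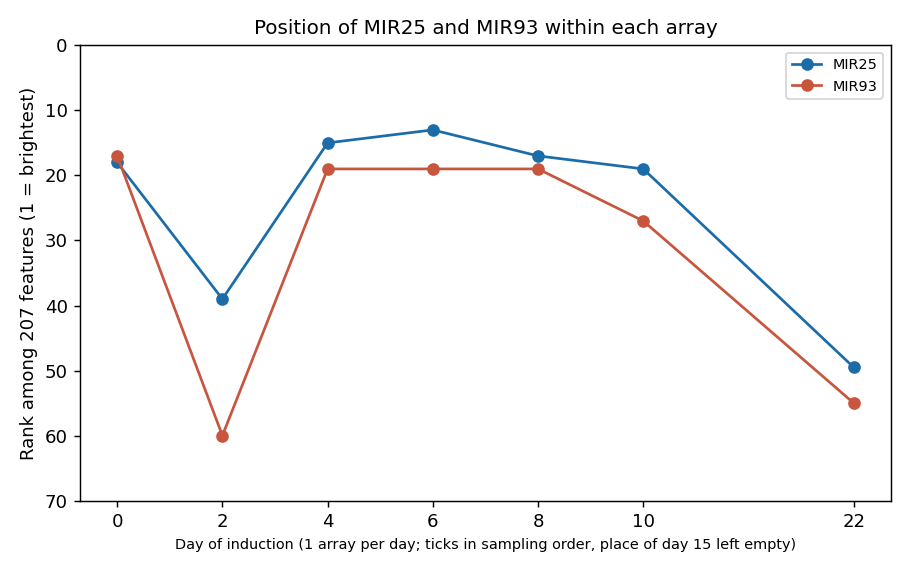
Rank of MIR25 and MIR93 by mean signal among the 207 features of each array, by day in sampling order, with rank 1 (brightest) at the top. Both genes lie between ranks 13 and 27 except on day 2 (39 and 60) and day 22 (49.5 and 55).

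Single steps between neighbouring arrays were described and not tested. From day 0 to day 2 the level of MIR93 differed by -1.10, the 7th most negative of 207 features, and that of MIR25 by -0.79, the 20th. In signal above the dimmest spot, MIR93 and MIR25 were at 92.6% and 112% of day 0 on day 2. The median spot was at 261 units on day 2 against 112 on day 0, and its bearing on the day 2 levels and ranks was not tested. A level lower by at least 1 on day 2 than on day 0 was found in 5.8% of features, MIR93 among them and MIR25 not. From day 2 to day 4 the differences were 0.98 for MIR25 and 0.96 for MIR93, and 30.9% of all features had a day 2 level below both day 0 and day 4. From day 10 to day 22 they were -0.93 and -0.68, and 42.5% of features were lower on day 22 than on day 10. Against day 0 itself, day 22 was lower by at least 1 in 12.1% of features, again with MIR93 (-1.13) past that size and MIR25 (-0.98) just short of it.

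No trend over the course passed the test for either gene. In limma's trend test across the 207 features, on the sampling order, the fitted change in level over the whole course was -0.50 ± 0.52 for MIR25 (SE, n = 7 arrays, 95% interval -1.68 to 0.68, adjusted p = 0.728, Benjamini-Hochberg). It was -0.55 ± 0.51 for MIR93 (SE, n = 7 arrays, 95% interval -1.71 to 0.62, adjusted p = 0.728, limma with Benjamini-Hochberg). Of all features 0.483% fell and 0% rose, and 22 had an unadjusted p under 0.05. The sign depended on day 22: without it, the fitted change was 0.42 for MIR25 and 0.18 for MIR93 (limma, adjusted p of 0.852 and 0.960). Here and below, a fitted change on part of the days is the slope extended to the whole course. The median change over all features was 0.03 after quantile normalization and -1.24 when arrays were not scaled to each other, and the members' own changes were then -2.03 and -2.08 (limma, adjusted p of 0.143 and 0.128).

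On the arrays up to day 6 the third spot of the 30 brightest features was brighter than the first in 22 to 30 of them, and from day 8 on in 10 or 11, so these sets of arrays were also fitted apart. In both genes the gap between these spots was wider on each array up to day 6 than on any from day 8 on. The third and first spots of MIR25 read 570 and 529 units on day 6, and 307 and 305 on day 8. Those of MIR93 read 478 and 371 on day 6, and 317 and 297 on day 8. In the sign of the gap, the members did not follow that split. The third spot of MIR25 was the brighter up to day 10 and the dimmer on day 22, and that of MIR93 was the dimmer on day 0 and the brighter on all 6 later arrays. These fits give slopes extended to the whole course, not the change within each set. Within days 0 to 6 the fitted changes were 1.33 for MIR25 and 0.53 for MIR93 (limma, adjusted p of 0.878 and 0.967). Within days 8 to 22 they were -2.38 and -2.43 (limma, adjusted p of 0.130 and 0.0867). The levels themselves went from 8.66 on day 8 to 7.70 on day 22 for MIR25, and from 8.65 to 7.60 for MIR93. With a term for the later set the fitted changes were -0.46 and -0.90 (limma, adjusted p of 0.889 and 0.778).

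A peak or trough was not called either. The second-order term of limma was -0.77 ± 0.36 for MIR25 and -0.55 ± 0.39 for MIR93 (SE, adjusted p of 0.311 and 0.519 by Benjamini-Hochberg), where a negative value leans towards a peak in mid-course, and 2.9% of features passed. Without day 0 both terms passed, at -1.04 and -1.01 (limma, adjusted p of 0.0108 and 0.0106), but 23.2% of all features then did.

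Compared with day 0, MIR93 had a lower level on 6 of 6 later arrays, with a mean difference of -0.50, and MIR25 on 4 of 6, with a mean difference of -0.23. Lower levels on all later arrays were found in 11.1% of features. For MIR93 the margins on days 6 and 8, at -0.06 and -0.08, were smaller than its spot SD on day 0. After median centring or scaling to the 75th percentile MIR93 was lower on 5 of 6 arrays, with day 8 the exception, and without scaling also on 5, with day 4 the exception. MIR25 was then lower on 2, 3 and 4 arrays.

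The levels of MIR25 and MIR93 were high and low on the same arrays, and this rested on days 2 and 22. On day 22, 0 spots of either gene exceeded the brightest foreign spot. On day 2 all 3 spots of MIR25 did, but only 1 of MIR93. The low end of the correlation thus lay near the foreign markers in 1 or both genes. Over 7 arrays Pearson's r was 0.946 (exact permutation p = 0.0137 over 5040 orderings) and Spearman's rho 0.821 (exact permutation p = 0.0341). After median centring rho was 0.679 and did not pass (exact permutation p = 0.110). Without days 2 and 22, the arrays farthest from the median of MIR25, r was 0.365 over 5 arrays (exact permutation p = 0.600), with 0.211 under median centring and 0.479 when arrays were scaled to the 75th percentile. Without scaling the farthest arrays were days 22 and 4, and r without them was 0.755 (exact permutation p = 0.108). Under quantile normalization, without day 2 or day 22 alone it was 0.926 and 0.911 (exact permutation p = 0.0514 for each). Both values of a pair come from 1 array and share its normalization. Within days 0 to 6 r was 0.943 over 4 arrays, and within days 8 to 22 it was 0.946 over 3, too few for a call.

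**Figure D4:**
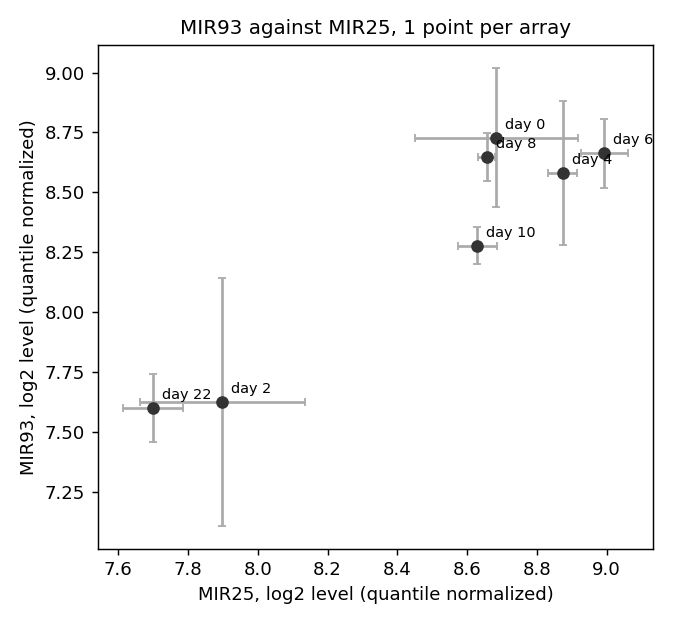
Quantile-normalized log2 level of MIR93 against that of MIR25, 1 point per array with its day, bars giving the SD of 3 spots in each direction. Days 2 and 22 lie apart at the lower left, and the other 5 arrays, over which r is 0.365, lie at the upper right. Not all 3 spots exceeded the foreign spots on day 22 in either gene, or on day 2 in MIR93.

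The difference between the neighbours, MIR93 minus MIR25, was 0.04 (day 0), -0.27 (day 2), -0.29 (day 4), -0.33 (day 6), -0.0088 (day 8), -0.35 (day 10) and -0.10 (day 22). Probes differ in affinity, so only its change over time can be read. Its SD over the 7 arrays was 0.16, and its fitted change over the course was -0.04 (exact two-sided permutation p = 0.838 over 5040 orderings). A change of the ratio between the neighbours was thus not detected. On day 22, 0 spots of either gene exceeded the brightest foreign spot, and on day 2 only 1 spot of MIR93 did. The differences on those arrays are therefore not clean ratios of the neighbours.

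Among all features MIR93 had the highest Pearson correlation with MIR25, and MIR25 the highest with MIR93, of 206 others, over 7 arrays (median over the others -0.17 and -0.14). Their r of 0.946 was closely followed by unnamed features, at 0.943 with MIR93 and 0.912 with MIR25. The arrays are shared, so these values only describe. Other scalings moved MIR93 to rank 4 for MIR25 after median centring, to rank 2 after 75th percentile scaling, and left it at rank 1 without scaling. Without scaling the median r over the others was itself 0.71 for MIR25 and 0.70 for MIR93. By rank within the array each was at rank 2 for the other. Under quantile normalization the named genes next in likeness to MIR25 were MIR15B (r = 0.880), a repressor of BCL2 and cyclins, then MIR10A (0.793), a gene of the HOXB locus, and MIR15A (0.787), which shares the seed of MIR15B. MIR23B (0.881) and MIR23A (0.766), which share a seed, were near MIR93, with MIR15B (0.806) between them. This order depended on the scaling. For MIR25, MIR10A was at rank 65 after median centring (r = 0.170) and at rank 62 after 75th percentile scaling (0.258). MIR21, a gene outside the naming rule and named after its values were seen, was then at rank 2 (0.954) and rank 1 (0.941), and MIR15B at rank 1 (0.962) and rank 3 (0.933). MIR15B had its lowest levels on the same 2 days, 8.75 on day 2 and 7.80 on day 22, against 9.20 to 10.39 on the other days. MIR23B had 6.16 and 6.13 on those days, against 6.93 to 7.74. The mean levels of MIR10A (6.39), MIR23B (6.99) and MIR23A (7.10) lay within the range of the foreign markers (6.37 to 7.11), so these likenesses concern signals near background. All 3 spots exceeded the foreign spots on none of the 7 arrays for MIR10A, and only on days 8 and 10 for MIR23A and MIR23B. For MIR15B they did on all arrays but day 22.

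Of the seed relatives of miR-25, MIR32 and MIR367 were near background. Their mean levels lay within the range of the foreign markers (6.37 to 7.11), a list that includes MIR367. All 3 spots of each lay at or below the array mean on all 7 arrays, while 0 spots of MIR25 did, and of MIR93 only 2, on day 2. From 67.1% (day 22) to 87.8% (day 0) of all spots did so, and that count alone does not mark background. MIR32, an intronic microRNA of TMEM245, had a mean level of 6.59 and a fitted change of 0.25 ± 0.39, and MIR367, from the embryonic MIR302 cluster, had 6.41 and -0.08 ± 0.28 (SE, n = 7 arrays). In all, 0 of the 3 measured genes of this seed fell and 0 rose in limma (of 7 listed), with a median change of -0.08. The embryonic MIR372 and MIR373, whose seed AAGUGCU is that of miR-93-5p moved by 1 base, had fitted changes of 0.26 and 0.24, and 0 of 2 were called (of 6 listed).

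MIR20A is the seed relative of MIR93 in the chromosome 13 cluster. In signal above the dimmest spot, it had a smaller share of day 0 than MIR93 on each array from day 2 to day 10. In normalized levels this was reversed on day 2, at -0.63 for MIR20A and -1.10 for MIR93 against day 0. On days 6 and 10 they were -0.17 and -0.06, and -0.57 and -0.45, closer together than the spot SD of MIR93 on day 0 (0.29). Its mean signal above the dimmest was 12423 ± 3699 units (day 0), 2258 ± 213 (day 2), 4469 ± 29.3 (day 4), 3923 ± 75.4 (day 6), 1804 ± 137 (day 8), 1449 ± 101 (day 10) and 136 ± 5.86 (day 22) (SD, n = 3 spots). As a share of its own day 0 signal, MIR20A was at 18.2% (day 2), 36.0% (day 4) and 11.7% (day 10), where MIR93 was at 92.6%, 200% and 49.3%. On day 2 only 1 spot of MIR93 exceeded the foreign spots. The highest foreign signal was 314 units that day, against 147 on day 0, so the 92.6% cannot be read as a share of MIR93 alone. On day 22 all 3 spots of MIR20A exceeded the foreign spots and 0 spots of MIR93 did, so a share is given there only for MIR20A, of 1.09%. That share takes the dimmest spot as zero and includes background. The highest foreign gene was at 87.0 units that day and the median spot at 63.0. In normalized levels MIR20A minus MIR93 was 2.93, 3.40, 2.05, 2.83, 2.48, 2.81 and 1.05 on the 7 days in order. Day 22, with MIR93 at the level of the highest foreign markers, gave the lowest difference. The fitted change of this difference was -1.58 (exact two-sided permutation p = 0.0702, and 0.140 after Benjamini-Hochberg adjustment over the 2 differences tested, a comparison chosen after the values were seen). It was -3.00 without quantile normalization (unadjusted exact permutation p = 0.0210), a single value for the 3 other scalings because a shift of a whole array cancels in the difference. It was -0.12 with values at or below 0 set to the lowest positive value (exact permutation p = 0.960) and -0.52 without day 22 (exact permutation p = 0.569), and the unadjusted exact permutation p was 0.0319 without day 4, 0.0444 without day 10 and 0.0407 on a scale of days.

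Of the other measured genes of the chromosome 13 cluster, both were near 200% of their day 0 signal on day 4, as MIR93 was. The whole array was brighter that day, with the median spot at 312 units against 112 on day 0. The foreign markers were then at 165% (MIR429) to 390% (MIR372) of their day 0 signal. MIR18A was at 104% of its day 0 signal after 2 days, and then at 200% (day 4), 85.8% (day 6), 63.4% (day 8) and 39.9% (day 10). MIR19A was at 111%, 199%, 73.3%, 13.6% and 13.9% on those days. MIR25 was at 112%, 241%, 128%, 73.6% and 73.3%, and MIR93 at 92.6%, 200%, 95.6%, 70.6% and 49.3%. These shares take the dimmest spot as zero, and on day 2 only 1 spot of MIR93 exceeded the foreign spots. For day 22 no share is given or compared, because 0 spots of MIR18A, MIR19A, MIR25 or MIR93 exceeded the brightest foreign spot there, and the quotient then depends on the brightness on day 0. On day 8 MIR19A, at 13.6%, and MIR20A, at 14.5%, thus lay below the other 3 genes, which were between 63.4% and 73.6%. Of the 3 measured genes of the paralog clusters (12 listed) MIR19A fell in limma's trend test (-3.02 ± 0.45, SE, n = 7 arrays, adjusted p = 0.0225, Benjamini-Hochberg), a call that was lost without day 2, 4, 10 or 22 (adjusted p from 0.0634 to 0.183) and with the term for days 8 to 22 (adjusted p = 0.584). MIR18A and MIR20A had -2.01 and -2.12 and did not pass, and the median of the 3 was -2.12 against 0.03 over all features. Both fell without scaling between arrays (limma, adjusted p of 0.0379 and 0.0138), where 205 of 207 features had a negative change and 4.35% fell, and on a scale of days, where 2.9% of features fell.

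**Figure D5:**
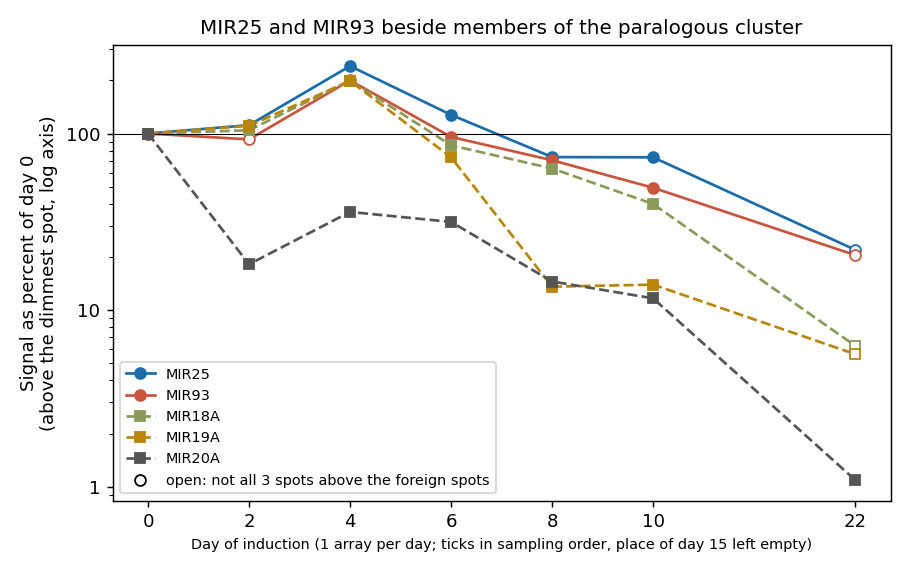
Mean signal above the dimmest spot as a percent of day 0, on a log axis, for MIR25 and MIR93 (solid lines) and for MIR18A, MIR19A and MIR20A of the paralogous cluster (dashed), by day in sampling order. Open points mark arrays on which not all 3 spots exceeded the foreign spots. This holds on day 22 for each gene but MIR20A, and on day 2 for MIR93. On day 8 MIR19A and MIR20A are at 13.6% and 14.5%, and the MCM7 pair is at 73.6% and 70.6%.

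Set among the 30 brightest features of day 0, both genes were above the median share on days 4, 6, 8 and 10. On day 2 MIR25 was above it and MIR93 below. The set was chosen by day 0 brightness and each share is divided by the day 0 signal, so the choice bears on the shares. The median share of the day 0 signal in that set was 179% on day 4, and MIR25 and MIR93 ranked 7 and 11 from the highest. On day 8 the median was 40.1% and the pair ranked 9 and 10. In the same order the ranks were 13 and 19 on day 2 (median 105%), 5 and 11 on day 6 (78.4%) and 9 and 15 on day 10 (48.0%). Erythroid list genes, of which 4 of 9 were measured (MIR15A, MIR15B, MIR22 and MIR96), had 0 calls in either direction in limma and a median change of -0.30, and of the megakaryocyte list MIR10A and MIR10B had 0 calls and a median of 0.07.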

How the data were processed

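Small RNA of K562 cells was isolated and labelled with Cy3 using Ambion kits and hybridised to 1-colour arrays, per the labels' protocols. For the scanner, image software and background correction the sources used here give no information. The deposited table holds linear intensity centred on each array's mean, as the values show, so zero and scale are unknown. All 8 columns were matched through sample titles. Of the 621 rows, 201 had 1 symbol, 0 several and 420 none, and the 67 named features matched RefSeq (GRCh38.p14) by gene identifier.

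Background was corrected with limma's normexp (limma 3.58.1, R 4.3.3, offset 50), followed by log2, quantile normalization and averaging of the 3 spots. The trend was fitted with lmFit and eBayes on the sampling order of the time points, with day 15 keeping its place (5 residual degrees of freedom, threshold 0.05). The trend fit was also run on simulated levels with linear changes and independent noise. Those had no array-wide shifts and did not repeat the background correction or normalization, so they cannot show how the test behaves on these unreplicated arrays. Offsets understate changes of dim features, and the number of arrays limits the precision. Alternatives are in the closing section.

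Members, lists and tests were chosen with earlier results of these data known. Named genes were MIR25, MIR93, measured members of the lists, features past the trend threshold and the 4 named features most correlated with each member. Plots used matplotlib 3.10.9 under Python 3.11.15.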

Additional observations from a re-analysis of the deposited data

How the results depend on the processing

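The fitted changes of MIR25 and MIR93 were not called in any of 26 alternatives each, and kept their sign in 24. The sign turned within days 0 to 6 (1.33 and 0.53, as slopes extended to the whole course) and without day 22. Leaving out each array gave -0.94 to 0.42 for MIR25 and -1.05 to 0.18 for MIR93, second-order terms of -1.04 to -0.16 and -1.01 to -0.025, mean differences from day 0 of -0.33 to -0.07 and -0.58 to -0.37, and correlations of rank with order of -0.60 to 0.14 and -0.94 to -0.030. Within days 0 to 6 the rank correlation of MIR25 was 0.80. With values at or below 0 set to the lowest positive value, the mean differences from day 0 were -1.37 and -2.21.

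The correlation of the pair was 0.911 to 0.966 when each array was left out, 0.943 and 0.946 within days 0 to 6 and days 8 to 22, and 0.365 without days 2 and 22 (a choice made after seeing the data). The fitted change of MIR93 minus MIR25 was 0.018 on a scale of days, and -0.25 to 0.19 when each array was left out.

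Over all features 1 fell and 0 rose. The number that fell was 9 without normalization, 2 after median centring, 2 after 75th percentile scaling, 6 on a scale of days, and 0 on log2(day + 1), with the floor at the lowest positive value, with the term for days 8 to 22 and within days 0 to 6 and 8 to 22. It was 0 to 2 when each array was left out. The number that rose was 4 on a scale of days, 2 with the day 15 column and 0 to 2 when each array was left out. Uncalled changes that turned sign were, without normalization, MIR32 (-0.87), MIR372 (-0.75) and MIR373 (-1.23), for MIR367 0.55 after median centring, 0.77 after 75th percentile scaling and 0.089 with the median of spots, with array weights MIR372 (-0.32) and MIR373 (-0.22), without day 22 MIR372 (range -0.18 to 0.41 when each array was left out) and MIR373 (range -0.40 to 0.72), and within days 0 to 6 MIR373 (-0.32). The causes were not tested. No paired analysis was possible because each time point has 1 array.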
